A study of Danio rerio with 6 samples.

Results

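Genes of motile cilia and of transport along cilia were followed in the olfactory rosettes of adult zebrafish (Danio rerio), the paired nasal organs that carry the olfactory epithelium. Members were taken by name: a probe belonged to the group when its gene symbol began with dnah, dnai, dnal, dynlrb, cfap, spag, tekt, rsph, ccdc, foxj1, kif3, kif17, tctn, armc or lztfl1, or with ift, bbs or cep followed by a digit. This gave 56 probes of 51 genes among 15611 probes tested, of which 5695 carried exactly 1 symbol. All 56 probes lay above the blank spots on all 6 arrays and none was saturated. By known role, 14 probes (13 genes) were assigned to the axoneme and its assembly, called axoneme below, and 3 (2 genes) to transport. Another 13 (12 genes) were assigned to the basal body, centriole and transition zone, and 1 to a transcriptional regulator. The other 25 (23 genes) share a name prefix without an assumed ciliary role. None of the 56 probes carried an ift, dnah, dnai, dynlrb, kif3, kif17 or tekt symbol, so transport here means lztfl1 and the BBSome subunit gene bbs2, and genes of the intraflagellar transport particles and their motors are not among the members.

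A motile cilium is built on an axoneme, a ring of doublet microtubules around a central pair, which bends when dynein arms slide the doublets under the control of radial spokes and the nexin-dynein regulatory complex. The axoneme grows from a basal body, a modified centriole, and behind a transition zone that controls what enters. Cargo moves by intraflagellar transport, and the BBSome, a complex of Bardet-Biedl syndrome proteins, carries membrane proteins out of the cilium. In the zebrafish olfactory rosette, multiciliated cells beat to drive water over the epithelium, while ciliated sensory neurons hold odorant receptors in the membrane of their own cilia.

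Wild-type samples came from wild type siblings of the mutants, and Rag1 mutant samples from homozygous rag1 mutants, in which both copies of a gene needed for antigen receptor recombination in B and T lymphocytes are mutated. There were 3 samples in each group, all untreated, of mixed sex and 1 to 2 years old, and each was hybridised to 1 array in 1 colour. The number of fish behind each sample is not in the labels, nor whether the samples are separate animals, so a p-value reflects the spread among 3 samples a side that could be technical. Mutant array 2 is called wild type in its source name but mutant in its title and strain, and every call was also made without it. Of the 5 calls given below, 1, that of cfap90, remained without that array. Calls over all probes fell as well, from 747 (4.79%) to 493 (3.15%). None of the 5 remained without wild-type array 3, mutant array 1 or mutant array 3, so the loss was not particular to mutant array 2. Across probes, mutant array 2 correlated at 0.983 or more with the other mutant arrays and at 0.973 or less with wild-type arrays. Values below are log2 brightness after background correction and normalisation, and differences are mutant minus wild type. Each array is named by its group and a number, and values of a group are given in the order of these numbers.

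The median gene spot was 4.75 to 7.21 times as bright as the blank spots over the 6 arrays. Across probes, pairs of wild-type arrays correlated at 0.981 to 0.988, pairs of mutant arrays at 0.983 to 0.987, and pairs of 1 of each at 0.963 to 0.973. Precision is limited by having 3 arrays a side: the standard error (SE) of a member's difference was 0.11 to 0.31.

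Of the 56 member probes, 5 passed the test between mutants and wild type, 2 lower and 3 higher in the mutants. The cilium genes cfap90 and spag17 fell at 1 probe each, the transport regulator lztfl1 rose at both of its probes, and ccdc86, a gene of the nucleolus that shares only its name prefix, rose. A probe was called at an adjusted p of 0.05 in limma's moderated test, with Benjamini-Hochberg adjustment over all 15611 probes. Across all probes 4.79% were called (2.36% lower and 2.43% higher), against 8.93% of the members. The median difference of the members was -0.12, beside 0.01 over all probes tested. In bulk tissue, fewer cells of a type and less RNA per cell cannot be told apart.

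**Figure D1:**
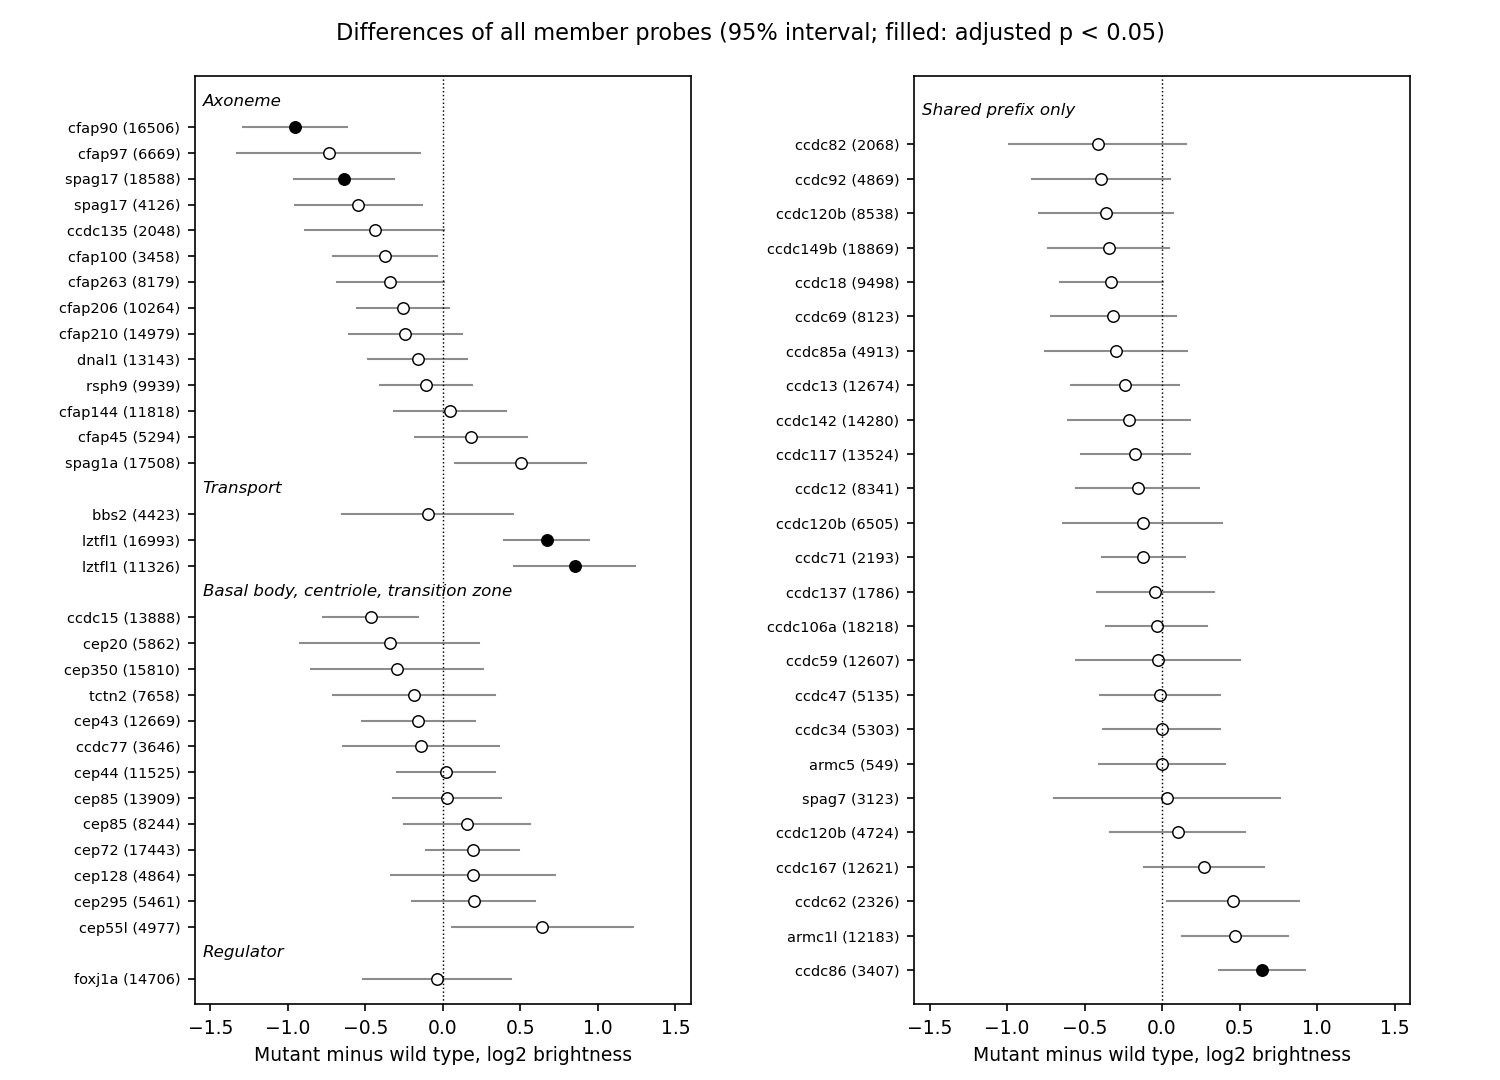
Difference of each of the 56 member probes (horizontal axis, mutant minus wild type in log2 brightness) with its 95% interval from limma, grouped by role, with symbol and spot number on the vertical axis. Filled points mark the 5 probes called at an adjusted p of 0.05; 11 of the 14 axoneme probes lie below 0, and the 13 basal body probes lie on both sides of it.

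Among axoneme genes, 2 of 14 probes fell and none rose, beside 2.36% of all probes called lower and 2.43% called higher. Below 0 lay 11 of the 14 probes, where 48.6% of all probes did, and their median difference was -0.30. This lean is not shown to be particular to axoneme genes. Of the 25 probes with a shared prefix and no assumed ciliary role, 19 also lay below 0. That set was not shown to lack ciliary genes. Over the 16 alternative settings its count below 0 ranged from 13 to 20, beside 11 to 12 of the 14 axoneme probes. On 7 of the 14 axoneme probes every mutant array was below every wild-type array, which was so for 12.8% of all probes. On 1 probe every mutant array was above, against 13% of all probes. Of the 25 shared-prefix probes, 2 had every mutant array below and 3 had every mutant array above. At an unadjusted p of 0.05 in limma, 5 axoneme probes were lower and 1 higher, beside 10.8% and 10.2% of all probes. In the shared-prefix set 0 were lower and 3 higher. The 2 sets were not tested against each other. Without both arrays numbered 2 the axoneme median difference was -0.41, and over all 16 alternative settings it ranged from -0.41 to -0.23.

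The largest fall was that of cfap90, which encodes a protein found inside the doublet microtubules of human airway cilia. Its probe (spot 16506) read 10.53, 10.17 and 10.37 in wild type and 9.33, 9.55 and 9.33 in the mutants. All mutant arrays were lower than all wild-type arrays, and the gap between the groups was wider than the range within either. The mean was 10.36 ± 0.18 (SD, n = 3) in wild type and 9.40 ± 0.13 in the mutants, a difference of -0.95 (SE 0.14, limma adjusted p = 0.0143), or 1.94-fold lower. Leaving out 1 array moved the difference to between -1.04 and -0.87. The call ended without wild-type array 3 (limma adjusted p = 0.0553), mutant array 1 (0.062) or mutant array 3 (0.0562), and the difference was -1.11 (0.0764) without both arrays numbered 2.

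spag17 encodes a large protein of the central pair that is needed for ciliary beating in mice. It has 2 probes, which share the target gene and are no independent replicates. Spot 18588 read 11.49, 11.47 and 11.34 in wild type and 10.91, 10.89 and 10.57 in the mutants, so that the groups did not overlap. It fell by 0.64 (SE 0.14, limma adjusted p = 0.0463), from a mean of 11.43 ± 0.08 to 10.79 ± 0.19 (SD, n = 3). Spot 4126 read 9.25, 9.02 and 9.45 in wild type and 8.71, 8.93 and 8.43 in the mutants, also without overlap. Its difference of -0.55 (SE 0.18, limma adjusted p = 0.127) did not pass. The call of spot 18588 ended without any 1 array (limma adjusted p 0.0787 to 0.136), with an offset of 10 (0.0574), with the misread print block kept (0.0542) and without both arrays numbered 2 (0.217), while its difference stayed between -0.70 and -0.53.

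**Figure D2:**
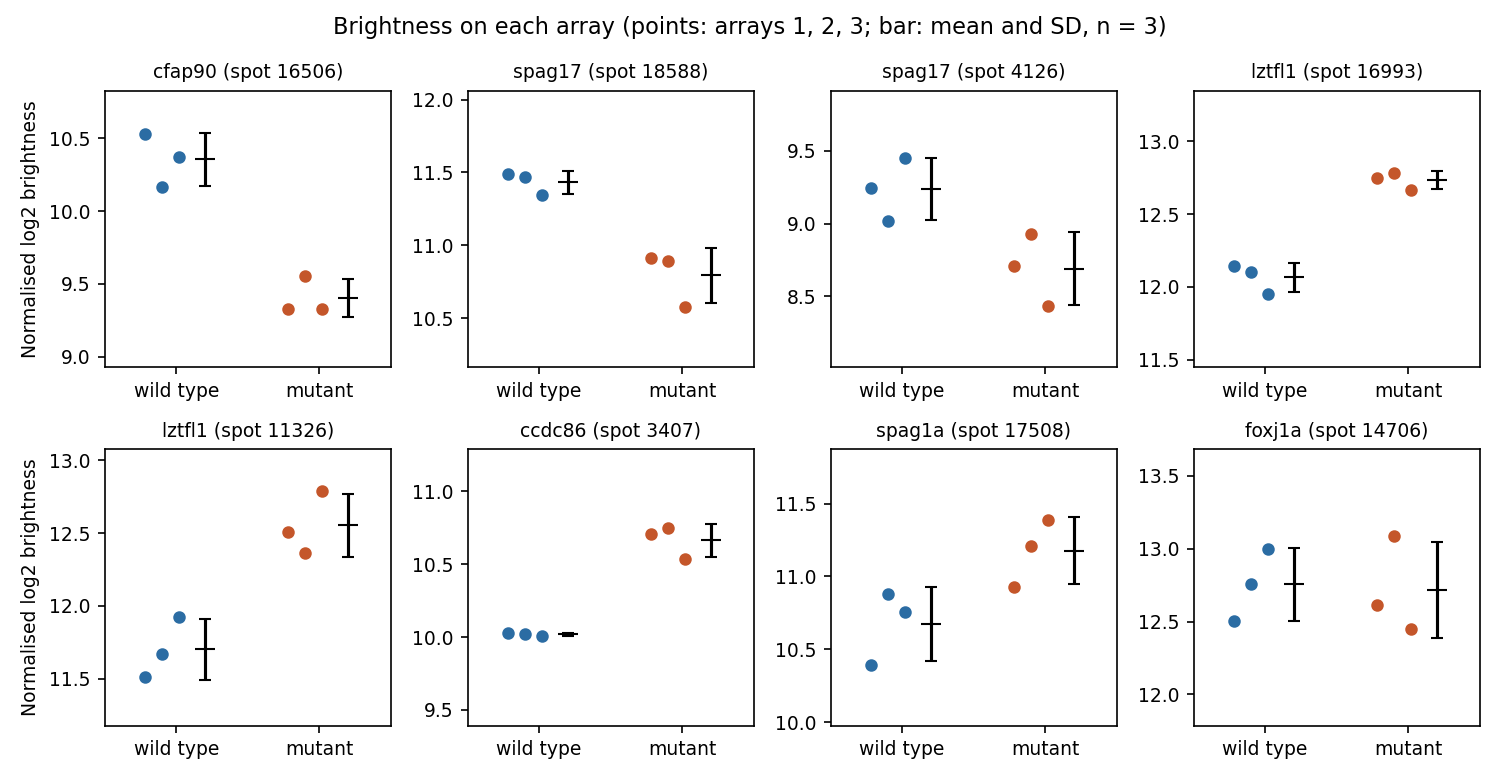
Normalised log2 brightness on each array (vertical axis) for cfap90, both probes of spag17, both probes of lztfl1, ccdc86, spag1a and foxj1a, in wild-type and mutant samples (horizontal axis). Points are arrays 1, 2 and 3 from left to right, bars are the mean and SD of 3 arrays, and each panel spans the same number of log2 units. The groups are separate in every panel but that of foxj1a, in panels chosen to hold the 5 called probes. Of all 56 member probes, 39 overlapped. Across all probes the groups were separate on 12.8% with the mutants lower and on 13% with the mutants higher.

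The other axoneme probes below 0 did not pass the test. cfap97 had the next lowest unadjusted p of this role. It read 10.86, 11.16 and 11.73 in wild type and 10.50, 10.21 and 10.84 in the mutants. No mutant array reached the lowest wild-type array, but the arrays of each group were spread widely, and the difference was -0.74 (SE 0.25, limma adjusted p = 0.149). ccdc135, a component of the nexin-dynein regulatory complex, was at -0.44 (SE 0.19, limma adjusted p = 0.248), with 1 mutant array inside the wild-type range. cfap100, which in Chlamydomonas is tied to the control of inner dynein arms, read 12.57, 12.14 and 12.43 in wild type and 12.05, 11.97 and 12.00 in the mutants. Its mutant arrays lay close together and just below the lowest wild-type array (-0.37, SE 0.14, limma adjusted p = 0.188). cfap263 (-0.34), which in Tetrahymena connects the regulatory complex to a radial spoke, and cfap206 (-0.26), which there belongs to the base of a radial spoke, had no overlap between groups. cfap210 (-0.24), of the inner surface of the doublets in mammals, did overlap.

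The 2 axoneme genes with the brightest probes differed little, while cfap100, next in brightness, was at -0.37 as given above. dnal1, a light chain of the outer dynein arm, read 13.01, 13.03 and 13.24 in wild type and 13.04, 12.75 and 12.99 in the mutants. Its groups overlapped, and its difference was -0.16 with a 95% interval of -0.48 to 0.16. rsph9, of the radial spoke head, was at -0.11 with an interval of -0.41 to 0.19. Above 0 lay cfap144 (0.05) and cfap45 (0.18), both of the inside of the doublets in mammals, and spag1a. The product of spag1a is not part of the axoneme but helps to assemble dynein arms in the cytoplasm before they enter the cilium. Its probe read 10.39, 10.88 and 10.75 in wild type and 10.93, 11.21 and 11.39 in the mutants, with all mutant arrays higher. The difference of 0.50 (SE 0.18, limma adjusted p = 0.167) did not pass. Members of this role thus had differences between -0.95 and 0.50, or between -0.95 and 0.18 without the assembly factor spag1a. The sign of cfap144 turned in 3 of the 16 alternatives.

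Of the 2 transport genes, lztfl1 rose and bbs2 did not pass the test, so the median over the 3 probes is a value of lztfl1, and over the 2 genes it was 0.33. lztfl1 encodes a protein that binds the BBSome and holds back its entry into cilia in mammalian cells. Its probe at spot 16993 read 12.14, 12.10 and 11.95 in wild type and 12.75, 12.78 and 12.67 in the mutants. Its probe at spot 11326 read 11.51, 11.67 and 11.93 in wild type and 12.51, 12.36 and 12.79 in the mutants. On both probes every mutant array was above every wild-type array. The differences were 0.67 (SE 0.12, limma adjusted p = 0.0256), or 1.59-fold, and 0.85 (SE 0.17, limma adjusted p = 0.0346), or 1.80-fold. The 2 probes share the gene and the samples.

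Leaving out 1 array kept the rise of lztfl1 between 0.61 and 0.71 at spot 16993 and between 0.73 and 0.96 at spot 11326. The call at spot 16993 remained without wild-type array 1 (limma adjusted p = 0.0422) and ended without any other array (up to 0.0925). The call at spot 11326 ended without any 1 array (limma adjusted p 0.0502 to 0.109). Without both arrays numbered 2 the values were 0.66 (limma adjusted p = 0.182) and 0.93 (0.153).

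bbs2, a core subunit of the BBSome, did not pass. Its probe read 11.23, 11.19 and 10.92 in wild type and 11.39, 11.16 and 10.48 in the mutants. Mutant array 3 was the lowest of the 6 and mutant array 1 the highest. The difference was -0.10, with a 95% interval of -0.65 to 0.45 (limma adjusted p = 0.871). Whether lztfl1 and bbs2 differ from each other in response was not tested.

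**Figure D3:**
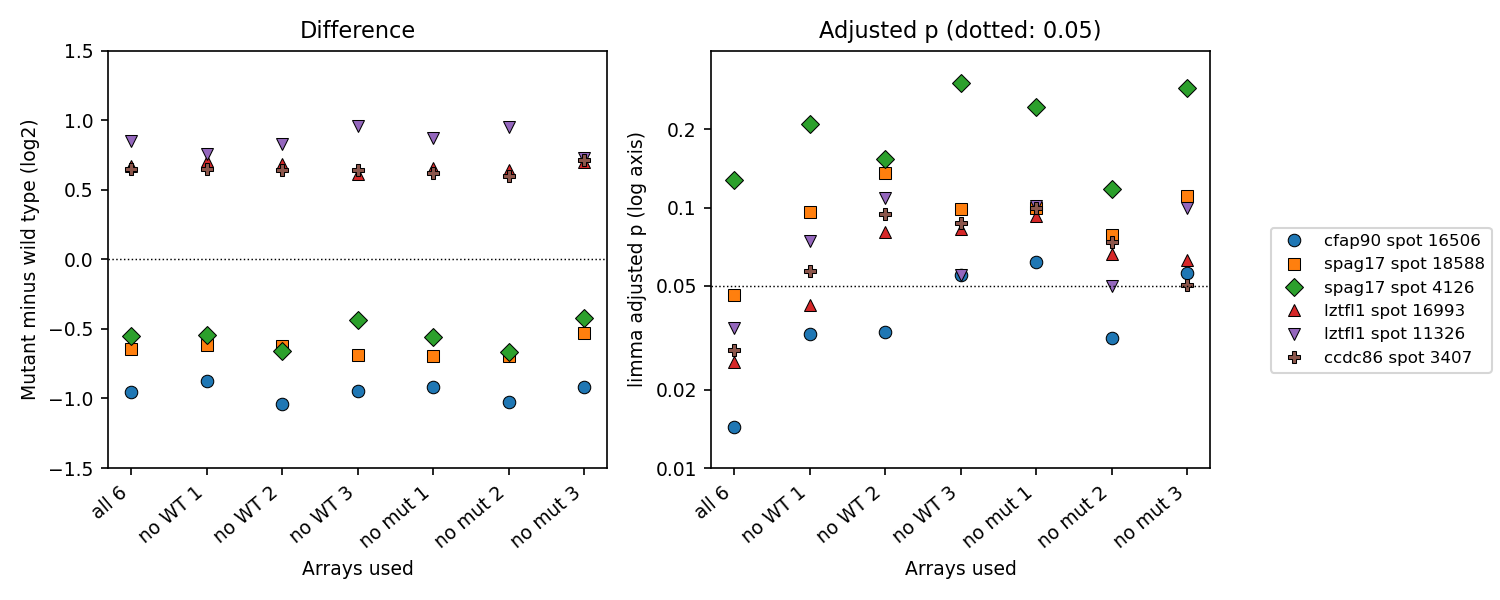
Difference between mutants and wild type (left, log2) and limma adjusted p (right, log axis, dotted line at 0.05) for 6 probes, with all 6 arrays and without each array in turn (horizontal axes). No difference changes sign, and cfap90 stays under 0.05 without wild-type array 1, wild-type array 2 or mutant array 2.

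Genes of the basal body, centriole and transition zone showed no call in either direction in limma, where 4.79% of all probes were called. At an unadjusted p of 0.05 there were 1 lower and 1 higher of 13 probes. Across all probes 10.8% were lower and 10.2% higher at that threshold. The median difference was 0.02, ranging from -0.05 to 0.05 over the alternatives, and 6 of the 13 probes lay below 0. ccdc15, which in human cells belongs to the inner scaffold of the centriole, read 8.53, 8.25 and 8.22 in wild type and 7.89, 7.90 and 7.82 in the mutants. Its groups were separate, and its difference of -0.47 (SE 0.13) had a limma adjusted p of 0.0943. cep55l, related to the gene of a protein of the final cut in cell division, read 7.55, 7.57 and 7.81 in wild type and 8.04, 7.94 and 8.88 in the mutants. All mutant arrays were higher, mutant array 3 most of all (0.64, SE 0.25, limma adjusted p = 0.197), and the difference was 0.35 without mutant array 3.

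The brightest basal body probes had intervals on both sides of 0. cep43, needed for the formation of cilia in human cells, was at -0.16 (95% interval -0.52 to 0.21). cep350, its binding partner at the centriole, was at -0.30 (-0.85 to 0.26). cep85, which restrains the separation of centrosomes, was at 0.02 (-0.33 to 0.37) and 0.16 (-0.25 to 0.56) at its 2 probes, so that they did not disagree beyond their error. cep72, of the centriolar satellites, was at 0.19 with a limma adjusted p of 0.47. The transition zone gene tctn2 was at -0.18 (-0.71 to 0.34), with mutant array 3 below the wild-type range and mutant array 1 just above it. The remaining genes cep20, ccdc77, cep44, cep128 and cep295 lay between -0.34 and 0.20 and their groups overlapped.

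foxj1a encodes the transcription factor that switches on the genes of motile cilia in zebrafish. Its probe read 12.50, 12.76 and 13.00 in wild type and 12.61, 13.08 and 12.45 in the mutants. The mutant arrays held both the highest and the lowest value of the 6. The difference was -0.04 (SE 0.20, limma adjusted p = 0.95), with a 95% interval of -0.52 to 0.44, and it changed sign in 3 of the 16 alternatives. A difference of the size seen at cfap90 lies outside this interval, while one of the size of cfap100 lies inside it.

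Of the 25 probes that share a name prefix and have no assumed ciliary role, 1 rose (4%, beside 4.79% of all probes called) and none fell. Below 0 lay 19 of the 25, with a median difference of -0.12 that moved to -0.06 without wild-type array 2 or without mutant array 3. ccdc86 read 10.03, 10.02 and 10.01 in wild type and 10.71, 10.75 and 10.54 in the mutants. The wild-type arrays differed by very little and all mutant arrays were above them (0.65, SE 0.12, limma adjusted p = 0.0284). This call ended without any 1 array (limma adjusted p 0.0504 to 0.0999) and without both arrays numbered 2 (0.209), with differences of 0.60 to 0.72. armc1l read 10.43, 9.97 and 10.15 in wild type and 10.70, 10.62 and 10.64 in the mutants, and was at 0.47 (SE 0.15, limma adjusted p = 0.12). ccdc62 was at 0.46 (SE 0.18, limma adjusted p = 0.205).

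The brightest probes of this set did not pass either. spag7 was at 0.03 with the widest error of all members (SE 0.31). ccdc71 was at -0.12 (SE 0.11), and ccdc47, a gene of the endoplasmic reticulum, at -0.01. The 3 probes of ccdc120b read -0.36, -0.13 and 0.10 as differences, none of which passed, and did not share a sign. The remaining 16 genes of this set had differences between -0.41 (ccdc82) and 0.27 (ccdc167), and the groups overlapped for all but ccdc18 (-0.33).

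Other ciliary genes outside the name rule showed no call. A list of such genes had 37 probes of 34 genes. None of them was called in limma, where 4.79% of all probes were called. At an unadjusted p of 0.05, 2 were lower and 1 higher, where 10.8% and 10.2% of all probes passed. Of its 12 probes listed as axonemal or assembly genes (11 genes), 11 lay below 0 (48.6% of all probes did), with a median of -0.19. Both probes of zmynd12 and tppp3, at -0.007, count among those below 0. The listed role of each gene was not checked here. The groups were apart on 1 of the 12, with the mutants lower, as on 12.8% of all probes. Examples are efhc2 (-0.39, SE 0.20, limma adjusted p = 0.329), a protein of the doublets, drc3 (-0.34, SE 0.21, 0.425), of the nexin-dynein regulatory complex, and dnaaf11 (-0.26, SE 0.21, 0.545), a dynein assembly factor. The 13 basal body and transition zone probes of the list had a median of 0.01, and the 6 trafficking probes one of -0.16, among them the BBSome subunit gene ttc8 (-0.30, SE 0.15, limma adjusted p = 0.303). Of the 6 regulator probes 5 lay above 0, with a median of 0.13. The exception was rfx2, a transcription factor of ciliary genes that acts with Foxj1, which read 11.28, 11.25 and 11.42 in wild type and 10.75, 11.12 and 10.67 in the mutants. Its mutant arrays were all lower (-0.47, SE 0.15, limma adjusted p = 0.134). myb, whose product acts upstream of Foxj1 in mouse airway cells, was at 0.40 (limma adjusted p = 0.169) with all mutant arrays higher at spot 12331 and at 0.15 at its other probe. e2f5, of a family needed for multiciliated cells, read 9.13, 10.61 and 10.25 in wild type and 10.48, 10.47 and 10.33 in the mutants. All its mutant arrays lay inside the wild-type range (0.43, SE 0.34, limma adjusted p = 0.555).

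Array by array, the axoneme probes kept the groups apart at their median and the basal body probes did not. Each probe was set against its own mean over the 6 arrays, and the median of these deviations was taken over the 14 axoneme probes. It was 0.06, 0.05 and 0.23 in wild type and -0.23, -0.04 and -0.13 in the mutants. Wild-type array 3 stood highest and mutant array 1 lowest, and the groups did not overlap. Over the basal body probes the same median was -0.07, -0.06 and 0.11 in wild type and 0.09, -0.03 and -0.27 in the mutants, with the groups overlapping. Outside the name rule, the axonemal list gave 0.12, -0.0005 and 0.16 against -0.07, -0.02 and -0.19. The trafficking list gave 0.09, 0.13 and -0.005 against -0.10, -0.02 and -0.18. Both lists thus also kept the groups apart, by little, while the basal body list outside the rule overlapped. The separation was not particular to the axoneme members. The shared-prefix probes overlapped, at 0.15, 0.02 and -0.10 in wild type and 0.07, -0.11 and -0.07 in the mutants. Of the 14 axoneme probes, 10, 9 and 10 read below all wild-type arrays on mutant arrays 1, 2 and 3. On the same arrays 2, 3 and 1 read above them. The share of all probes doing so on a single mutant array was not computed, so these counts have no background beside them. The medians and counts describe the lists and were not tested.

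**Figure D4:**
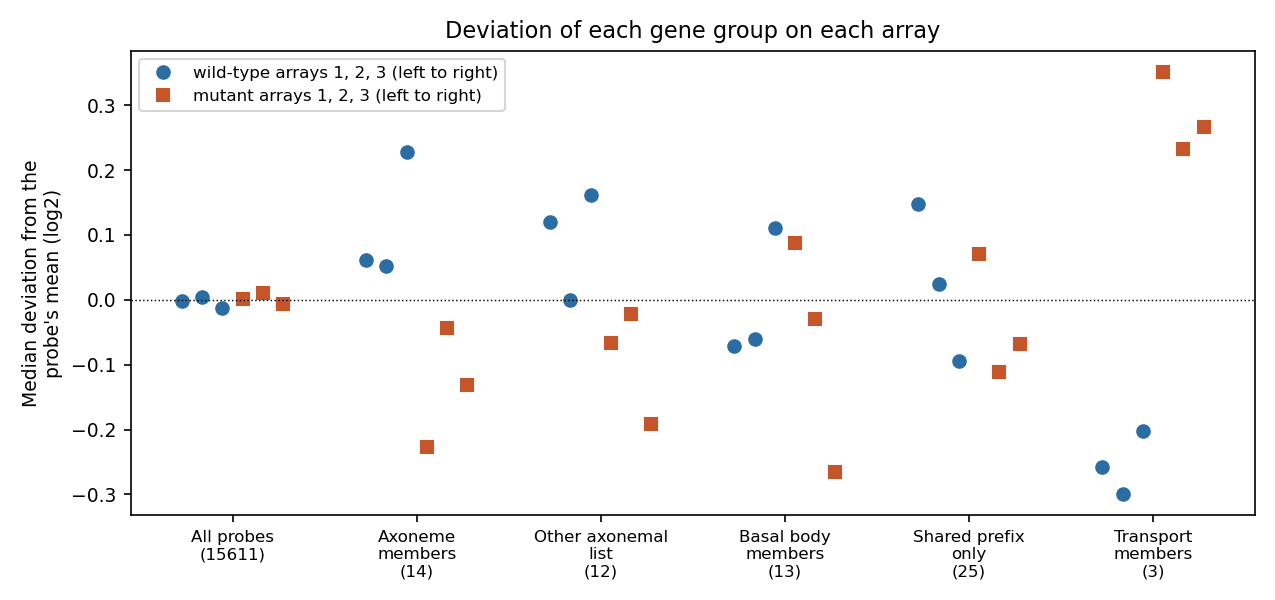
Median deviation of each gene group's probes from their mean over the 6 arrays (vertical axis, log2) on each array, for all 15611 probes, the members by role and the axonemal list outside the name rule (horizontal axis, number of probes in brackets). Wild-type circles lie above mutant squares for axoneme members, between 0.05 and 0.23 against -0.23 and -0.04. The order is the opposite for the 3 transport probes, 2 of which are of the 1 gene lztfl1. The 6 trafficking probes outside the name rule, not drawn, had the order of the axoneme members.

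Markers of other cells also changed between the groups. Across all probes 2.43% were called higher and 2.36% lower. At an unadjusted p of 0.05, 10.2% were higher and 10.8% lower. Of 19 symbols listed for olfactory sensory neurons, whose cilia also rest on axoneme and transport genes, 3 were measured, and cnga2 (-1.19, SE 0.16, limma adjusted p = 0.0109) and gng13b (-0.69, SE 0.15, 0.0453) fell while ebf2 was at -0.43 (0.108). Of the 2 calls, 1 remained whichever 1 array was left out, with an offset of 10 or with the misread block kept, and 0 without both arrays numbered 2. The summed linear brightness of the 3 markers was 49330.1 to 59224 in wild type and 27201 to 34014 in the mutants. Most of it came from gng13b on every array. All 3 were above the blank spots on every array, and so were all 10 measured markers of surface epithelium, none of which changed in limma and none at an unadjusted p of 0.05 (sums of 168673 to 195296 and 182214 to 185449). Of 9 probes listed for macrophages, not shown to be particular to them, 5 rose (2 to 6 without 1 array, 1 without both arrays numbered 2). Their sum was 139352 to 157165 in wild type and 170535 to 187021 in the mutants, most of it from cd74a and cd74b, which lay near the top of the scale on every array. Without these 2 probes it was 21264 to 30715 and 41069 to 56158, a sum chosen after the values were seen. Of 5 neutrophil probes 4 rose (sums of 4180 to 6580 and 11348 to 30422), and 3 to 4 without 1 array. Of 10 probes of dividing cells 2 rose (15117 to 16033 and 24006 to 30544), and 8 were higher at an unadjusted p of 0.05. The count was 6 with the sample number as a block, 1 to 3 without 1 array and 0 without both arrays numbered 2. Centriole genes also serve division. Of 5 red blood cell probes 1 rose (15710 to 21036 and 26407 to 67484), 2 with the block and 0 to 3 without 1 array. The called probe was cahz. Most of the sum came from hbba1 (limma adjusted p = 0.117) and hbaa1 (0.0556), which did not pass. The part of these cells in the differences of ciliary genes was not tested.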

How the data were processed

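Per the labels' protocols, total RNA was labelled through transcription in vitro, and each file holds 1 colour. The deposited scanner tables hold an intensity and a local background per spot, with no normalization recorded, per the file headers. The sources used here do not give the scanner or image software. A ratio per probe, centred on its median over the arrays, stands in the authors' deposited value table and was used only as an alternative. The deposited pixel standard deviation, a signal per spot, was only inspected.

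Both readings were divided by 100 (pixels per spot), background-corrected by normexp with an offset of 50 (limma 3.58.1 under R 4.3.3) and quantile normalized after 2765 blank, 36 bacterial and all but 1 (the mean) of 172 actin spots were dropped. An unreadable spot was left out on all arrays, as was a print block of 400 spots that on wild-type array 2 was read 1 row off (correlation with the other arrays 0.241 in place, 0.981 at the next row). No member lay in it. Probes above the 95th percentile of the blank spots on all 3 arrays of a group were tested with lmFit and eBayes, two-sided, adjusted by Benjamini-Hochberg. Symbols came from the platform annotation and were updated to assembly GRCz12tu. A current symbol was found for 55 of the 56 member probes, none of which changed, and the other probe kept its platform symbol. Probe sequences and promoters were not used here, so a planned description of promoter motifs was left out. On simulated arrays of 15611 probes the fit recovered 61% of 2-fold changes and 93% of 4-fold ones. There, 100 probes were changed at each size, and the noise was independent between arrays.

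The members, lists and tests were chosen with earlier results of these data known. Genes were named by rule: every called probe, in each role the 3 genes with the brightest probes and the 3 with the lowest unadjusted p, genes with several probes, and foxj1a, 22 in all. Other members are named for completeness, and those of the lists after their values were seen. Same-numbered arrays deviated together from their group means (r = 0.317, 0.223 and 0.284), although only the number 2 stands in the labels of both groups.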

Additional observations from a re-analysis of the deposited data

How the results depend on the processing

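The 5 called probes gave 80 values under 16 alternatives, of which 47 kept the call, 33 lost it and 0 changed sign. The other members gave 816 values, of which 0 gained a call and 53 changed sign, all of probes whose difference was at most 0.18 in size. Leaving out 1 array at a time, which leaves fewer samples, gave 247 to 598 called probes in all, 0 to 2 called members, 0 to 1 higher and 0 to 1 lower, and the median of the 3 transport probes, a value of lztfl1, ranged from 0.61 to 0.71. No member remained called without wild-type array 3, mutant array 1 or mutant array 3. Without both arrays numbered 2, which leaves 2 per group, 80 probes and 0 members were called (0 higher, 0 lower), and the axoneme median was -0.41. With an offset of 10, and with the misread print block kept, 1 member was called lower; the cause was not tested. Median scaling, no background subtraction, either filter on dim probes, array weights and the authors' deposited value table kept all 5 calls. With the sample number as a replicate block, 1117 probes passed in place of 747, and 5 members as before; this pairing changed no call of a member. Among dividing-cell markers, 5 of 10 were called with median scaling, 6 with the authors' table and 4 with array weights, in place of 2. With 3 arrays a side, 61% of simulated 2-fold changes were recovered, and all called members changed by less than 2-fold. Fewer probes were changed in the simulation than were called here, and its noise was independent between arrays. The recovered share may therefore differ in these data.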
